A study of Mus musculus with 4 samples.

Results

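Mouse chromosome 16 carried 2578 of the 80881 ATAC-seq peaks in the authors' deposited table, or 3.19%, and is described here because its median difference between the groups was the highest of 21 chromosomes. ATAC-seq marks open chromatin through a transposase that inserts adapters where DNA is accessible. The cells were KPC cells, made from KP mouse lung adenocarcinoma cells by lentiviral delivery of Cas9 with a puromycin resistance gene and by selection in puromycin. In the group mA2 dRNA, CRISPR activation from the lentiviral vector lenti-SAM-Hygro was aimed at Malat1, a nuclear long noncoding RNA, and in the group Con dRNA at luciferase, which the mouse genome lacks. Each group had 2 biological replicate cell samples, and both groups carried Cas9 and the activation vector. All cells came from a single line and, as far as the labels say, from a single Malat1 guide.

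The peaks were selected by their chromosome name alone, but the chromosome was chosen by its values in the contrast of mA2 dRNA with Con dRNA. Everything below from that contrast is therefore a description and not independent support for a change. Reads given for a group are means that the authors computed after normalization, and positions are in mm10. The spread between libraries and the depth of each library were not used here, so no error stands beside the means. The table names its groups dmA12 and dLuc, which are taken here as mA2 dRNA and Con dRNA; for dmA12 this rests on the series having a single contrast, and every direction below depends on it. A difference is the log2 mean of mA2 dRNA minus that of Con dRNA. A peak is called, and is said to have risen or fallen, where its adjusted p, as the authors' deposited table has it, lies under 0.05.

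As background, the distal end of mouse chromosome 16 holds the counterparts of many genes of the human Down syndrome chromosome, among them App, the amyloid precursor, Runx1, a transcription factor of blood and epithelia, and the interferon receptor genes Ifnar1, Ifnar2 and Ifngr2. A proximal segment holds the counterparts of the human DiGeorge region. Between them lie Trp63 and Hes1, which control basal epithelium and Notch responses, and the guidance receptors Robo1 and Robo2. Open sites near promoters tend to be shared between cell types, and open sites far from genes are often enhancers particular to a cell type.

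The promoter sequences that could be set under a risen peak are shown first, since promoters were a minority among the calls. For 3 of the 9 called promoter peaks, a promoter sequence of the assigned gene that overlaps the peak was at hand. These are RefSeq windows (build GRCm38.p6) from 250 bases before the start site to 50 after it. The other called promoter peaks need not miss RefSeq start sites, and those of Jam2, Abi3bp, Bace2, Nectin3 and Ripk4 cover one. Capitals mark matches, on either strand, to any of 8 motifs. The motifs found were AP-1, spelled TGANTCA, the GC box that binds Sp factors, spelled GGGCGG, the CCAAT box, spelled as its name, and the TEAD motif, spelled ACATTCC. Those searched and found in none of the 3 windows were CRE, spelled TGACGTCA, the ETS motif, spelled CCGGAAG, the E-box, spelled CACGTG, and the TATA box, spelled TATAAA.
Cdip1, chr16:4789892-4790191, minus strand: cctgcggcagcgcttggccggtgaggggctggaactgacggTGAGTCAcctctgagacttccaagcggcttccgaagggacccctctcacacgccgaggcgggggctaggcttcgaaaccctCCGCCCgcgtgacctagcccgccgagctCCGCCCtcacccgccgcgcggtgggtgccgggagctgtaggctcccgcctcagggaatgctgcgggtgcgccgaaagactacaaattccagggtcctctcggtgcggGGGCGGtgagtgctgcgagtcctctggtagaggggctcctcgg
Vgll3, chr16:65814939-65815238, plus strand: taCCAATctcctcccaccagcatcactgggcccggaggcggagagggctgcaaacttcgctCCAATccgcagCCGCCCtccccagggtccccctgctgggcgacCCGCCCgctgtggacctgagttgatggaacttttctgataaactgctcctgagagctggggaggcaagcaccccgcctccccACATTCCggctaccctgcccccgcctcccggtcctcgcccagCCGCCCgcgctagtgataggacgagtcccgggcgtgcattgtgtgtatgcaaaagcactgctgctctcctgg
Robo2, chr16:74411776-74412075, minus strand: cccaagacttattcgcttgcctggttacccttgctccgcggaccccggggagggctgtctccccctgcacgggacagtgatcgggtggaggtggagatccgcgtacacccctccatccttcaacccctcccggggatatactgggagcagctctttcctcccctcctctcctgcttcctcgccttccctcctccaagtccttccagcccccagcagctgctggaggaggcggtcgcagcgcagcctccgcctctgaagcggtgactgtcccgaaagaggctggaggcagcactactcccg
The Cdip1 window lay within its peak over all 300 bases, the Vgll3 window over 288 and the Robo2 window over 164. Their GC contents were 69.3%, 65.3% and 65%, with 30, 19 and 17 CpG dinucleotides.

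The Cdip1 promoter held 1 AP-1 match and 3 GC boxes. The Vgll3 promoter held 3 GC boxes, 2 CCAAT boxes and 1 match to the TEAD motif, and the Robo2 promoter held none of the motifs searched. Of the 32851 promoter windows of all chromosomes 7.81% had an AP-1 match, 35.7% a GC box, 37.4% a CCAAT box and 3.85% a TEAD match. On chromosome 16, among 1078 windows, these shares were 8.72%, 33.2%, 37.6% and 4.55%. CRE, ETS, E-box and TATA letters were present in 1.79%, 8.86%, 7.15% and 13.6% of the windows of all chromosomes. Among the 278 chromosome 16 windows under a promoter peak of their gene, 68.7% had a GC box and 2.88% an AP-1 match, with a median of 23 CpG dinucleotides, against 4 in the 800 windows without such a peak. A match is a run of letters and not a measured binding site.

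Called peaks were also assigned to 2 microRNA genes of the chromosome, at 6.57 kb for Mir155 but from 248 to 858 kb away for Mir691. The mature forms of both are given with the seed, bases 2 to 8, in capitals. Mir155, an inflammation-linked microRNA of immune cells and tumours, gives 2 arms.
mmu-miR-155-5p: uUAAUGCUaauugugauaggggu
mmu-miR-155-3p: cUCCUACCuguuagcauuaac
mmu-miR-691: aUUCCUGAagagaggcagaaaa
These sequences are RefSeq's, and no 2 of the 3 share a seed. The assay measures open chromatin and not the level of these RNAs.

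Most peaks on chromosome 16 were higher with the Malat1 guide, by a small amount at most sites, though not evenly along its length. The mean was higher in mA2 dRNA at 1996 of 2578 peaks, or 77.4%, against 60.3% of the peaks of all other chromosomes. The median difference was 0.26, with quartiles of 0.04 and 0.57, against a median of 0.09 on the other chromosomes with quartiles of -0.15 and 0.36. The authors' deposited table also holds a log2 fold of its own, which is smaller: its median was 0.03 on chromosome 16 and 0.01 on the other chromosomes. The next chromosomes by median difference were 13 at 0.23 and 15 at 0.21. Chromosome 16 held 2.86% of all normalized reads in peaks in mA2 dRNA and 2.57% in Con dRNA. In bulk chromatin, more cells with an open site, more open copies of it per cell and a larger share of reads from the chromosome cannot be told apart.

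On chromosome 16, 88 peaks rose and 7 fell, at 76 assigned genes. The risen peaks were 3.41% of its peaks, against 2.23% of all peaks, and the fallen peaks 0.272%, against 0.507% of all peaks. Nothing is read from these shares, since the chromosome was chosen in this contrast. Chromosome 13 had 3.08% higher calls and chromosome 15 had 4.67%, so the chromosome with the highest median was not the one with the highest share of calls. The median fold of the risen peaks was 2.97, within a range of 1.35 to 14.1, and that of the fallen peaks was 2.34. Risen peaks held a median of 123 reads in mA2 dRNA and 39 in Con dRNA, and 17 of the 88 had under 10 reads in Con dRNA. With all differences centred on the chromosome's own median, 37 of its peaks were called higher and 21 lower. Higher calls were then 63.8% of its calls, against 92.6% without centring. Over all peaks the same centring made higher calls 30.3% of the calls, against 81.5% without it.

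**Figure D1:**
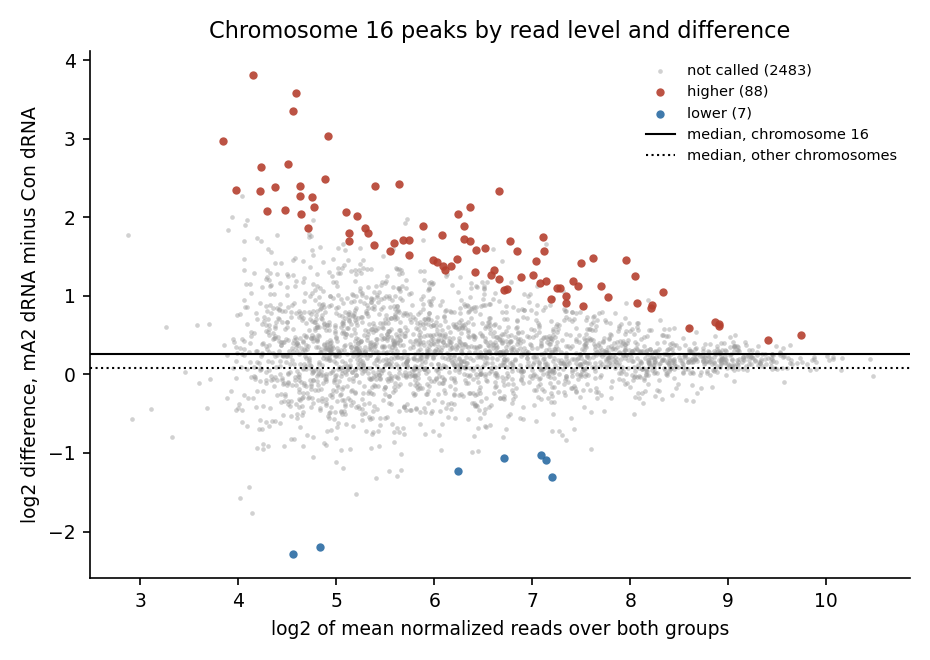
Chromosome 16 peaks, each a point, by the log2 of the authors' mean normalized reads over both groups (horizontal) and the log2 difference of mA2 dRNA minus Con dRNA (vertical). Red and blue points are the 88 peaks called higher and the 7 called lower, and the lines are the medians of chromosome 16 (0.26) and of the other chromosomes (0.09); the shift of the solid line is seen at strong and weak peaks.

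The shift was seen at every read level. Among the table's strongest peaks, those in the top quartile with 186 reads or more, 573 chromosome 16 peaks had a median difference of 0.21, with quartiles of 0.11 and 0.33, against 0.07 for the other chromosomes. In that quartile 88.8% of the chromosome 16 peaks and 63.1% of the other peaks had the higher mean in mA2 dRNA. In the bottom quartile, up to 35.9 reads, the 660 chromosome 16 peaks had a median of 0.32, against 0.11 elsewhere. Chromosome 13 had medians of 0.20 and 0.30 in the same top and bottom quartiles, and chromosome 15 had 0.16 and 0.26.

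Along the chromosome, all 10 windows of 10 Mb had a positive median. The lowest was 0.15, between 60 and 70 Mb, where 29 of 46 peaks were higher in mA2 dRNA. That share, 63.0%, was near the 60.3% of the other chromosomes. From 60 to 65 Mb, 16 of 30 peaks were higher in mA2 dRNA. The window from 60 to 70 Mb held 16 protein-coding genes. Its smallest p was at a peak assigned to Pros1, the anticoagulant protein S, but 249 kb from its start and outside its RefSeq bounds. That peak held 25.3 reads in mA2 dRNA and 3.24 in Con dRNA. The highest was 0.38, between 80 and 90 Mb, where 10 of 117 peaks were called higher and 0 lower. The window from 10 to 20 Mb, which holds the DiGeorge counterparts and 132 protein-coding genes, had 403 peaks, a median of 0.21 and 3 calls. On the other chromosomes 74% of 258 windows with at least 20 peaks had a positive median, and 27.1% reached the lowest value of chromosome 16.

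**Figure D2:**
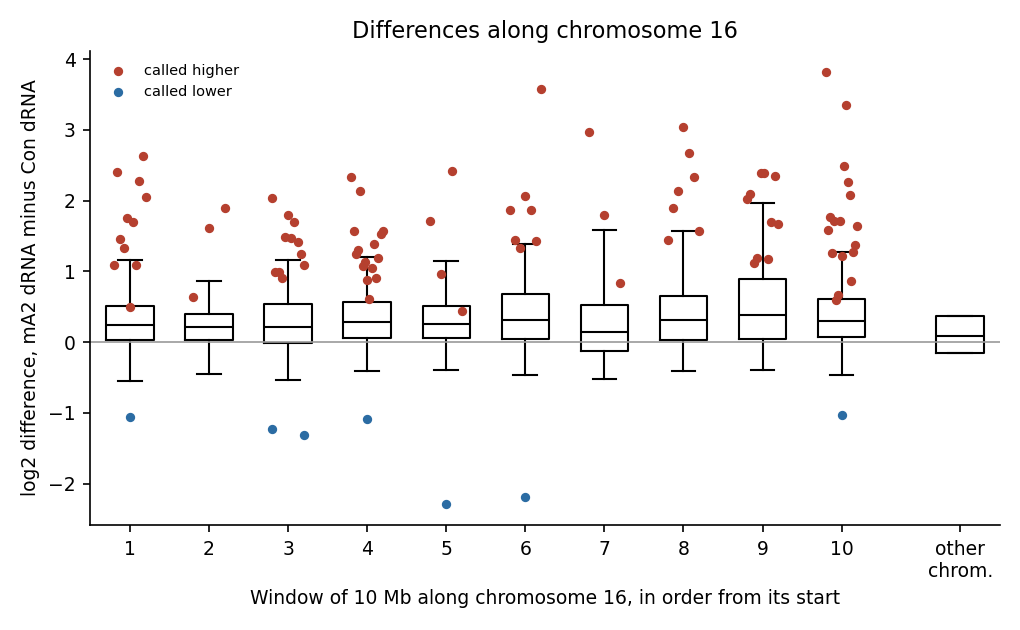
Log2 difference of mA2 dRNA minus Con dRNA in the 10 windows of 10 Mb of chromosome 16, in order from its start, with the peaks of all other chromosomes at the right. Boxes show the median and quartiles, whiskers the 5th to 95th percentiles (windows of chromosome 16 only), and points the called peaks; every window median lies above 0, between 0.15 and 0.38.

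In width, number and place the chromosome's peaks compared with the others as follows. All but 3 of the 2578 were windows of 401 bp, and chromosome 16 had 27.1 peaks per Mb, against a median of 31.7 over the chromosomes other than Y. Of its 679 protein-coding RefSeq genes 71.4% had an assigned peak, against 73.2% on the other chromosomes. Promoter peaks made up 15.8% of the chromosome 16 peaks and 16.9% of the others. The median distance to the assigned start site was 25.2 kb on chromosome 16 and 19.2 kb elsewhere.

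Every annotation class with over 50 chromosome 16 peaks had a higher median than the same class elsewhere. Promoter peaks had a median of 0.20 on chromosome 16 against 0.06 elsewhere, and 368 of 408 had the higher mean in mA2 dRNA. Intron peaks had 0.29 against 0.11 and distal intergenic peaks 0.29 against 0.09. Only 8 promoter peaks were called higher and 1 lower, with higher calls making up 1.96% of the class, against 1.20% of the promoter peaks of all chromosomes. Of the risen peaks 68 of 88 lay over 10 kb from the assigned start site, or 77.3%, against 68.3% of all chromosome 16 peaks. On the other chromosomes the same shares were 76.5% of the risen peaks and 63.5% of all peaks.

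**Figure D3:**
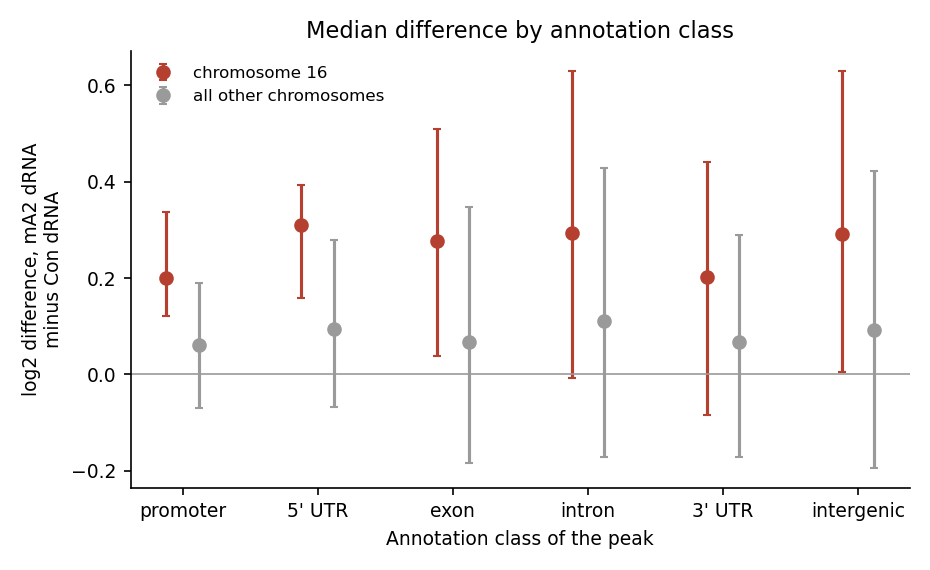
Median log2 difference of mA2 dRNA minus Con dRNA by annotation class for chromosome 16 (red, left of each pair) and all other chromosomes (grey), with bars from the lower to the upper quartile over peaks. The chromosome 16 median is the higher in each of the 6 classes drawn, with promoters at 0.20 against 0.06.

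The rise with the smallest p lay 29.1 kb upstream of Cldn1, which encodes a claudin of tight junctions. That intergenic peak, chr16:26400987-26401387, held 264 reads in mA2 dRNA and 98.6 in Con dRNA, 2.68-fold higher (authors' deposited table, adjusted p = 4.96e-05). An intergenic peak 25 kb past the start of Hes1, the Notch-responsive repressor, held 169 reads in mA2 dRNA and 33.6 in Con dRNA, a 5.03-fold rise. An intronic peak of Grin2a, a subunit of the NMDA glutamate receptor, held 122 and 29.5 reads in mA2 dRNA and Con dRNA, 4.13-fold higher. These sites had reads in both groups, and more of them with the Malat1 guide.

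Other rises began from very few reads. An intronic peak of Col8a1, a short-chain collagen, held 44.6 reads in mA2 dRNA and 3.72 in Con dRNA, 12-fold higher (authors' deposited table, adjusted p = 0.000376). An intronic peak of Hunk, a kinase related to AMPK, held 33.2 reads in mA2 dRNA and 2.36 in Con dRNA, 14.1-fold higher and the largest fold of the chromosome's calls. Both folds rest on very few reads in Con dRNA. An intergenic peak 88.5 kb upstream of Nectin3, an adhesion molecule of adherens junctions, rose 5.37-fold to 84.3 reads in mA2 dRNA. An intronic peak of Map3k7cl rose 5.26-fold to 70.9 reads in mA2 dRNA.

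Other risen sites had more reads. A peak annotated to a 5′ untranslated exon of Tfap4, a helix-loop-helix factor, held 365 reads in mA2 dRNA and 133 in Con dRNA, 2.74-fold higher. An intergenic peak 98.7 kb upstream of Trp63 rose 3.25-fold to 126 reads in mA2 dRNA, and an intergenic peak 21.3 kb upstream of Dlg1, a scaffold protein of cell polarity, rose 2.18-fold to 243 reads in mA2 dRNA. The Cdip1 promoter peak, whose sequence is given above, held 1002 reads in mA2 dRNA and 710 in Con dRNA. It was the strongest risen peak of the chromosome, at an adjusted p of 0.0111 (authors' deposited table), and is named after its value was seen.

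The 7 fallen peaks lay at 7 genes, in 6 of the 10 windows of 10 Mb. The lowest p belonged to a peak 171 kb from the start of P3h2, a collagen prolyl hydroxylase, which held 84.5 reads in mA2 dRNA and 210 in Con dRNA, 2.48-fold lower (authors' deposited table, adjusted p = 0.00747). A promoter peak 0.616 kb upstream of Liph, a lipase, held 45.3 reads in mA2 dRNA and 106 in Con dRNA. An intronic peak of Mylk, the myosin light chain kinase, held 90 and 191 reads in mA2 dRNA and Con dRNA. The Tfg and Donson peaks lie inside the RefSeq bounds of Abi3bp and Itsn1 and not of the assigned genes. The largest fall was 4.87-fold, at a site 320 kb upstream of Ift57 with 8.01 reads in mA2 dRNA and 39 in Con dRNA, and Hapstr1 had the remaining call, 2.09-fold lower.

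**Figure D4:**
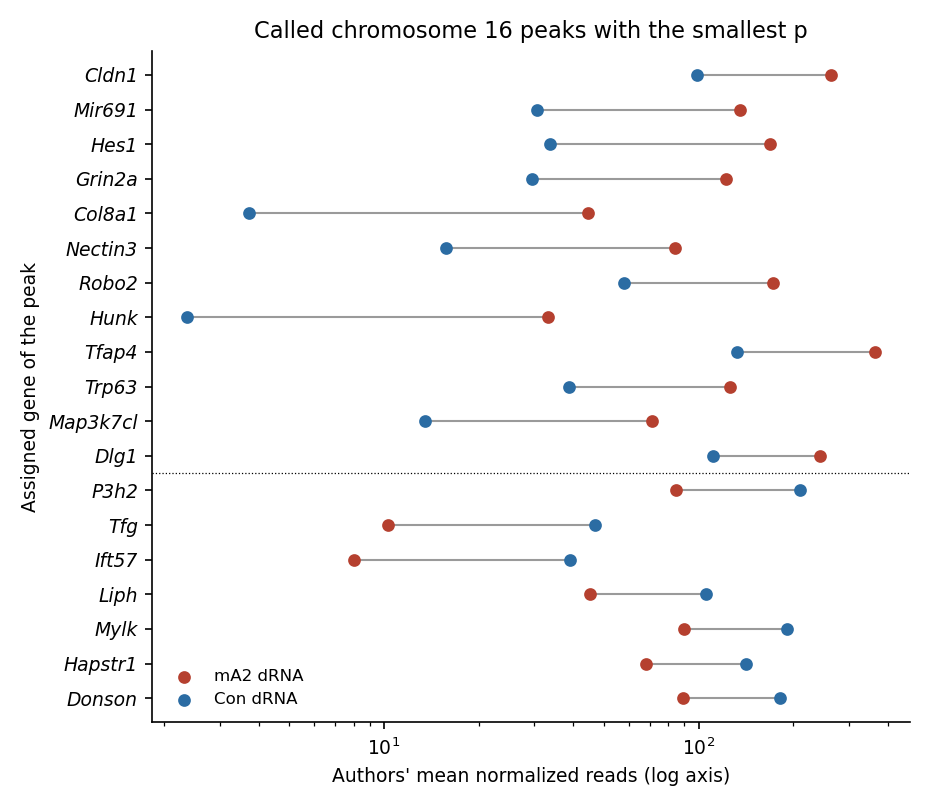
The authors' mean normalized reads (log axis) in mA2 dRNA (red) and Con dRNA (blue) at the 12 risen peaks with the smallest p, 1 per gene, and, under the dotted line, at all 7 fallen peaks. The spans run from 14.1-fold higher at Hunk to 4.87-fold lower at Ift57.

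Of the 95 called peaks 57, or 60%, had another call within 200 kb, against 60.5% of the 2116 calls on other chromosomes and 42.9% of the uncalled chromosome 16 peaks. The loci that follow were chosen after their values were seen. Robo1 and Robo2 encode receptors for Slit guidance cues. Between an intron of Robo1 and an internal promoter of Robo2, all 17 peaks from 72.9 to 74.5 Mb had the higher mean in mA2 dRNA. Their median difference was 1.46, with 6 higher calls. These bounds cut through Robo1: of all 14 peaks assigned to it 11 were higher in mA2 dRNA, and the lowest difference was -1.12. The Robo2 promoter peak held 172 reads in mA2 dRNA and 58.1 in Con dRNA, 2.97-fold higher (authors' deposited table, adjusted p = 0.0013). The intronic Robo1 peak rose 3.72-fold to 125 reads in mA2 dRNA. The 4 called peaks between those, at 135, 53.7, 39.2 and 31.1 reads in mA2 dRNA against 30.6, 6.54, 6.15 and 6.15 in Con dRNA, were assigned to Mir691 from 248 to 858 kb away, and the last lies inside Robo2.

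Around Runx1 the differences changed within a short distance. The 8 peaks from 92.3 to 92.39 Mb, by Kcne1, a potassium channel subunit, and its neighbours, had a median difference of -0.02. Of these 4 were higher in mA2 dRNA and 0 were called. From 92.39 to 92.5 Mb, by Rcan1, 6 of 10 peaks were higher in mA2 dRNA, with a median of 0.23 and 1 call, and 2 peaks assigned to Clic6 there were not higher. From 92.5 to 92.66 Mb, within these bounds set after the values were seen, all 17 peaks were higher in mA2 dRNA, with a median of 0.58 and 3 calls. The table assigns these 3 to Clic6, a chloride channel protein, but 2 of them lie within Runx1 in RefSeq, which spans chr16:92601466-92826074. Those 2 held 467 and 571 reads in mA2 dRNA and 310 and 360 in Con dRNA, and the weaker call ended with centring on the median of all peaks (adjusted p of 0.137, recomputed for the centred differences). The 28 peaks from 92.66 to 93.1 Mb, all assigned to Runx1, had a median of 0.53 and 0 calls, and 23 were higher in mA2 dRNA.

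Past Runx1, all 11 peaks from 93.1 to 93.3 Mb were higher in mA2 dRNA, with a median of 0.58, and 4 were called. They were assigned to 1810053B23Rik, a long noncoding RNA gene, from 102 to 216 kb away. The strongest contrast was at chr16:93264056-93264456, with 43.0 reads in mA2 dRNA and 4.21 in Con dRNA, 10.2-fold higher (authors' deposited table, adjusted p = 0.000408). The other 3 held 121, 142 and 50 reads in mA2 dRNA and 36.9, 60.8 and 8.9 in Con dRNA, and the call of the second ended with centring along mean abundance (adjusted p of 0.0528).

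At Hes1, 2 sites past the gene rose, and the sites at its start were not called. The promoter peak held 614 reads in mA2 dRNA and 479 in Con dRNA, a difference of 0.36 that was not called. The called sites at 25 and 46.3 kb held 169 and 70.1 reads in mA2 dRNA and 33.6 and 23.6 in Con dRNA. The region from 30.0 to 30.2 Mb had 24 peaks with a median of 0.78, of which 23 were higher in mA2 dRNA and 3 were called, the last assigned to Cpn2. Upstream of Rbfox1, a neuronal splicing factor, all 5 assigned peaks were higher in mA2 dRNA, and 3 of them rose, to 166, 213 and 41.1 reads in mA2 dRNA against 51, 99.5 and 8.51 in Con dRNA.

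Near Mir155 a weak peak rose. It lies 6.57 kb past the start of the microRNA, at chr16:84720707-84721107 and inside Mrpl39 in RefSeq, and held 36 reads in mA2 dRNA and 8.45 in Con dRNA (authors' deposited table, adjusted p = 0.0319). The 8 peaks assigned to its host gene Mir155hg had differences from -0.31 to 0.68 with a median of 0.44, and 0 were called. The peak the table places at the host gene's promoter held 122 reads in mA2 dRNA and 80.5 in Con dRNA. Over the 23 microRNA genes of the chromosome with an assigned peak, 5 of 95 peaks were called higher and 0 lower. These higher calls were 5.26% of the 95 peaks, against 3.41% of chromosome 16 peaks and 2.23% of all peaks. All 5 were assigned to Mir155 or Mir691, those of Mir691 from 248 to 858 kb away.

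Gene lists by known role were read against the chromosome, where 3.41% of peaks were called higher, the median difference was 0.26 and, over all peaks of the genome, 2.23% were called higher. They held 203 genes, and lists and members were chosen with results of these data known. Peaks were counted at the gene the authors assigned, so some calls inside a listed gene are left out of its list. Such were risen peaks inside St6gal1, Lpp, Col8a1, Robo2 and Runx1, and the Tfg fall inside Abi3bp. Of 99 peaks at 19 genes of interferon and cytokine signalling 3 rose and 0 fell, with a median difference of 0.27. A peak in a 3′ untranslated region, 3.07 kb from the start of Socs1, the inhibitor of JAK signalling, rose 1.56-fold to 586 reads in mA2 dRNA, against 376 in Con dRNA. Sites 95.4 kb upstream of Thpo, thrombopoietin, and 32.7 kb upstream of Parp9, an interferon-induced enzyme, rose 4.1-fold and 2.6-fold, the Parp9 call ended with centring on the median of all peaks (adjusted p of 0.0604), and the Thpo call with centring along mean abundance (0.0521). The promoter peaks with the most reads were not called: Litaf had 893 reads in mA2 dRNA and 691 in Con dRNA, Cblb 757 and 634, and Ifnar1 682 and 575.

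Of 60 peaks at 10 genes of the immune surface 4 rose and 0 fell, with a median of 0.31. Nectin3 had 2 of them, the second at its promoter with 192 reads in mA2 dRNA and 99 in Con dRNA. A site 151 kb from Cd47, the signal that restrains phagocytosis, rose 1.35-fold to 782 reads in mA2 dRNA, and an intronic peak of Alcam, an adhesion molecule, 3.65-fold to 61.6 reads. The Cd47 and Nectin3 promoter calls ended when differences were centred on the median of all peaks, with adjusted p of 0.171 and 0.103. The leading Alcam promoter peak held 834 reads in mA2 dRNA and 724 in Con dRNA, and Tigit, a lymphocyte receptor, 216 and 160, neither called.

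Transcription factor genes numbered 25 with a peak, and 9 of their 189 peaks rose and 0 fell, with a median of 0.29. Etv5, an ETS factor downstream of growth factor signalling, had 2 intronic rises, to 292 and 216 reads in mA2 dRNA against 147 and 108 in Con dRNA. Bach1, a repressor of haem and antioxidant genes, had a 2.25-fold rise 9.2 kb upstream and a 3.25-fold rise in an intron. The promoter of Vgll3, a cofactor of TEAD factors, held 380 reads in mA2 dRNA and 212 in Con dRNA. Trp63 had 17 peaks with a median of -0.02, and 8 of the 17 were higher in mA2 dRNA. The weaker Etv5, Bach1 and Hes1 calls and the Vgll3 call ended with centring on the median of all peaks, with adjusted p of 0.101, 0.0524, 0.0562 and 0.0872. The promoters of Etv5, Bach1 and Gabpa, at 1006, 697 and 645 reads in mA2 dRNA against 875, 636 and 548 in Con dRNA, were not called.

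At 14 claudin and junction genes 5 of 59 peaks rose and 0 fell, with a median of 0.30. Besides Cldn1 and Dlg1, the promoter of Jam2, a junctional adhesion molecule, rose 2.18-fold to 286 reads in mA2 dRNA, against 131 in Con dRNA. Cldn17 had 2 rises, the one nearer its start with 73.2 reads in mA2 dRNA and 23 in Con dRNA. The other, at 26.3 reads in mA2 dRNA, was no longer called with centring on the median of all peaks (adjusted p of 0.0688). The most read promoters, of Cldnd1, Dlg1 and Emp2, held 690, 390 and 267 reads in mA2 dRNA and 601, 277 and 220 in Con dRNA and were not called.

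At 18 matrix, protease and adhesion genes 8 of 129 peaks rose and 1 fell, and the median, 0.40, was the highest of the lists. Itgb5, an integrin subunit that binds vitronectin, rose 2.07-fold at a peak 61.9 kb past its start, to 435 reads in mA2 dRNA against 210 in Con dRNA. Fstl1, a secreted follistatin-like protein, rose 1.88-fold to 351 reads in an intron, and the promoter of Abi3bp, a matrix protein, held 99.1 reads in mA2 dRNA and 39.3 in Con dRNA. A peak 59.5 kb upstream of Tmprss2, a membrane serine protease, rose 2.41-fold. Peaks assigned to Vasn, a TGF-beta binding protein, and Muc13, a mucin, rose to 140, 213 and 578 reads in mA2 dRNA against 55.7, 63 and 378 in Con dRNA, but lie inside Coro7 and Heg1 in RefSeq. The Mylk fall was the lower call, while the Mylk promoter peak held 311 reads in mA2 dRNA and 198 in Con dRNA, not called. Centring on the median of all peaks ended the Abi3bp call (adjusted p of 0.0557), and the Vasn and Pak2 promoters, at 534 and 390 reads in mA2 dRNA against 414 and 296 in Con dRNA, were not called.

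At 13 guidance and neural adhesion genes 3 of 92 peaks rose and 0 fell, with a median of 0.23. Beside Robo1 and Robo2, an intronic Dscam peak rose 4.23-fold to 31.8 reads in mA2 dRNA, a call that ended with centring on the median of all peaks (adjusted p of 0.0732). The promoters with the most reads differed little in value: Ephb3, an ephrin receptor, held 1108 reads in mA2 dRNA and 974 in Con dRNA, Tiam1, a Rac activator, 345 and 356, and Cadm2 271 and 253. None of these was called.

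In the Down syndrome region 7 of 120 peaks at 25 listed genes rose and 1 fell, with a median of 0.37. A peak inside App, 24.7 kb from its start, rose 2.29-fold to 238 reads in mA2 dRNA. It was annotated to an exon of a transcript without a gene identifier. An intronic Rcan1 peak, at an inhibitor of calcineurin, rose 2.4-fold to 182 reads in mA2 dRNA. Ripk4, a kinase of epidermal differentiation, rose at its promoter and in an intron, to 63.4 and 104 reads in mA2 dRNA against 20.3 and 40.1 in Con dRNA. Both Ripk4 calls ended with centring along mean abundance, with adjusted p of 0.0591 at the promoter and 0.0556 in the intron. The promoter of Bace2, a protease that cuts App, held 237 reads in mA2 dRNA and 130 in Con dRNA, a call that ended with centring on the median of all peaks (adjusted p of 0.0846). A peak 100 kb from Slc5a3, an inositol transporter, rose 3.42-fold. The strongest promoters differed by less: Chaf1b, Ltn1 and Son held 732, 634 and 570 reads in mA2 dRNA and 691, 540 and 522 in Con dRNA, and none was called.

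At 19 DiGeorge counterparts 0 of 60 peaks were called and 0 had an unadjusted p under 0.05 (authors' deposited table), with a median of 0.15, the lowest of the lists. Of the chromosome's 2578 peaks, 364 with the higher mean in mA2 dRNA and 30 with the lower had such a p. The promoters of Dgcr8, a subunit of the microRNA processor, Crkl, an adaptor protein, and Mrpl40 held 746, 656 and 629 reads in mA2 dRNA and 652, 580 and 536 in Con dRNA. At 16 replication, repair and cell cycle genes 1 of 59 peaks rose and 0 fell, with a median of 0.22: a 3.05-fold rise 22.3 kb past the start of Rmi2, of the BLM complex. Their promoters at Gsk3b, Mcm4 and Senp2, with 1493, 715 and 632 reads in mA2 dRNA and 1301, 681 and 557 in Con dRNA, were not called. At 21 metabolism and transport genes 1 of 119 peaks rose, 175 kb from Opa1, and 1 fell, at Liph, with a median of 0.20. The risen peaks inside St6gal1, a listed gene, were assigned to BC106179 and are not among the 119. The Tfrc, Abcc5 and Pcyt1a promoters held 675, 581 and 577 reads in mA2 dRNA and 610, 553 and 510 in Con dRNA, with none called.

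Markers of other cells had 1 call among the peaks assigned to them. At 5 of 10 leukocyte markers 0 of 15 peaks were called, with a median of 0.18. Of these 15, 1 had an unadjusted p under 0.05 (authors' deposited table), against 364 higher and 30 lower of the chromosome's 2578 peaks. No peak analysed here was assigned to Igll1, Vpreb1, Trat1, Klhl6 or Retnlg. At 4 endothelial markers 1 of 22 peaks rose, the Jam2 promoter, with a median of 0.16. The risen peak inside Heg1, 1 of these markers, was assigned to Muc13 and is not among the 22. The promoters of Heg1 and Erg, an ETS factor of endothelium, held 156 and 41.7 reads in mA2 dRNA and 126 and 43.2 in Con dRNA. Peaks near a gene are not its RNA, and the part of other cells in these values was not tested.

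**Figure D5:**
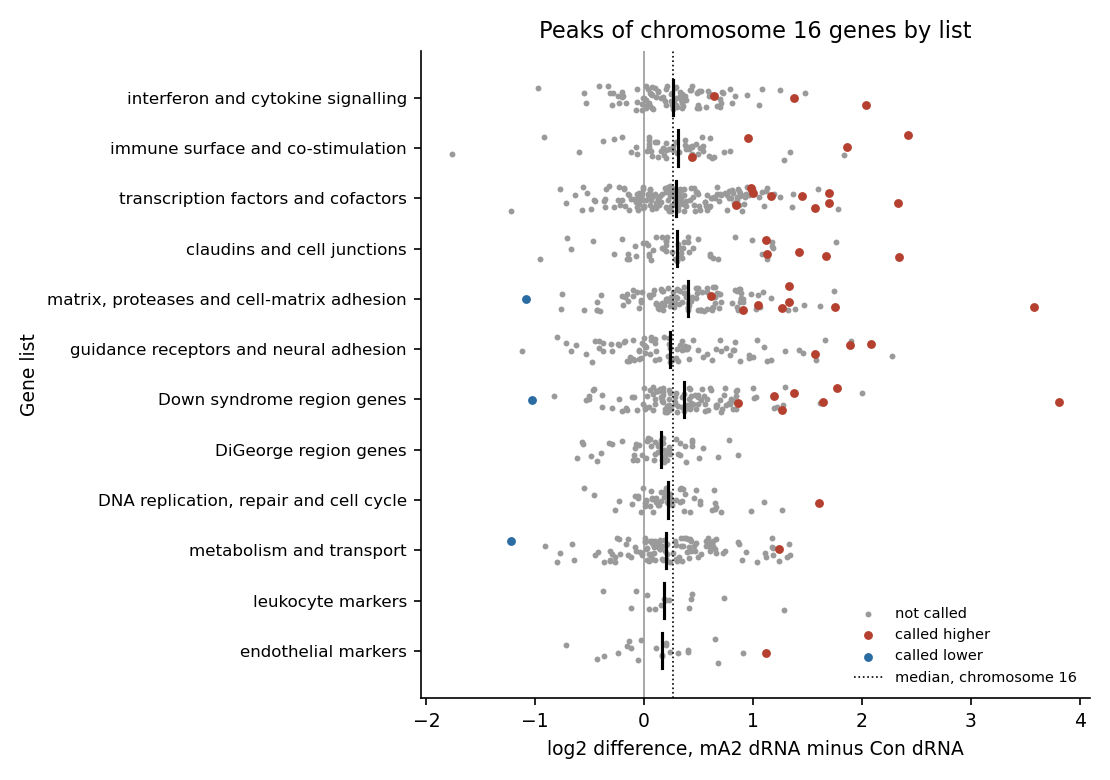
Log2 difference of mA2 dRNA minus Con dRNA at the chromosome 16 peaks of 12 gene lists, with called peaks in red (higher) and blue (lower), the median of each list as a black bar and the chromosome's median of 0.26 as a dotted line. List medians run from 0.15 for the DiGeorge counterparts to 0.40 for matrix genes.

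Single genes spread around the chromosome's shift. Of the 86 genes with at least 8 peaks, 82 had a positive median, or 95.3%, against 70.3% of 2762 such genes on the other chromosomes. All peaks were higher in mA2 dRNA at 14 of the 86, or 16.3%, against 6.41% elsewhere. Named after their values were seen, Col8a1 had the highest median, 0.87 over 8 peaks, followed by Robo1 at 0.75 over 14 and Opa1 at 0.75 over 8. At the other end stood Or1f19, an olfactory receptor gene, at -0.44 over 8 peaks with 1 of them higher, and Mrpl40 at -0.06 over 9.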

How the data were processed

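The 4 libraries were ATAC-seq of KPC cells, 2 per group, prepared with a commercial ATAC-seq kit of Active Motif, per the labels' protocols. The build mm10 and the tools Bowtie2, Picard, MACS2, DiffBind and ChIPseeker are named per the submitters' processing notes. How they were set, whether read ends were shifted and duplicates removed, how libraries were scaled and whether peaks were called on pooled samples: not given in the sources used here.

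Per the file headers, the deposited table gives each group's mean normalized reads as log2 values, with the authors' log2 fold and the p-value before and after adjustment. Folds in the text are ratios of those group means, since the authors' log2 fold was smaller, with a median ratio to the difference of 0.718 at called and 0.109 at the 2483 uncalled chromosome 16 peaks. The header's dmA12 and dLuc were taken as mA2 dRNA and Con dRNA, the only contrast of the series, and for dmA12 that is the sole ground. The 4 columns of per-library values have names that match no label and were left out, so there was no count model, no error and no depth per library; the planned count or limma fits were replaced by the authors' p-values, whose test the sources do not name.

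Computed from the table were differences, medians, calls (adjusted p under 0.05) and windows, with Python 3.11.15, pandas 2.3.3, numpy 2.4.6 and scipy 1.17.1. Centred p-values came from the error that each p-value and difference imply, a step tested on simulated data; 587 peaks whose difference and authors' fold differ in sign were left uncalled there. Members and lists were chosen with earlier results of these data known. Named peaks were up to 12 per direction with the smallest p (1 per gene, without predicted gene models), all called peaks of listed genes, the 3 promoter peaks per list with the most reads, the 5 genes with the most calls and the smallest p per window. Genes are the authors' assignments; all 589 matched RefSeq identifiers, and of 228 peaks at a start site with a RefSeq promoter window 214 overlapped it.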

Additional observations from a re-analysis of the deposited data

How the results depend on the processing

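The direction held under all alternatives except centring on the chromosome's own median, which sets it to 0. The median difference of 0.26 became 0.17 when centred on the median of all peaks and 0.17 along mean abundance, 0.20 with promoter peaks only, 0.29 without them and 0.20 with 1 peak per gene. The 88 higher and 7 lower calls became 37 and 21 with centring on the chromosome's median, 3 and 0 with promoter peaks only, 23 and 0 with 1 peak per gene, and 35 and 1 at an adjusted p under 0.01. With promoter peaks only or without them, the adjusted p was recomputed within the peaks kept. The 3 and 0 are therefore not the 8 and 1 promoter calls among all peaks. With centring on the median of all peaks they were 65 and 7, along abundance 59 and 7, without promoter peaks 83 and 6, with at least 32 mean reads 71 and 5, and with a difference of at least 1 they were 74 and 7. Over all peaks, centring on their median made the higher calls 67.4% of the calls, against 81.5% without centring. With 5 Mb windows the medians ran from 0.12 to 0.47. Of 96 named peaks 65 were called, and 34 of these under all 3 centrings; 12 calls ended with centring on the median of all peaks, 16 along abundance and 31 on the chromosome's median, which alone ended those of App, Fstl1, Muc13, Opa1, Rcan1, Socs1, Tmprss2, all 3 of Rbfox1 and 1 each of Bach1, Clic6, Etv5, Mir691 and Vasn. No paired analysis was possible because no per-library column could be tied to a sample; for that reason leaving out replicates and the count tools were also not run, and motif shares over peaks need a genome and were not run. Without errors or depth per library, folds from under 10 reads are the least certain.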
